A study of Mus musculus with 4 samples.

Results

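The genes examined here encode the subunits and closest partners of the Polycomb repressive complexes PRC1 and PRC2. They are a list of 36 named genes out of 21883 protein-coding genes, of which 25 belong to PRC1 and 11 to PRC2. The catalytic modules, called core here, account for 14 of them and the targeting or regulatory subunits, called accessory, for 22. For each gene, the INO80 peaks at its transcription start site (TSS) were taken from the deposited peak lists. INO80 is the ATPase of a nucleosome remodelling complex, and its genome-wide binding was measured by chromatin immunoprecipitation and sequencing (ChIP-seq).

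Both groups, INO80 immunoprecipitates and input chromatin, came from testes of DBA/2J x C57BL/6J F1 mice. All of these mice had been injected daily with fertilysin, a drug that keeps germ cells as spermatogonia, from day 2 after birth (dpp). Retinoic acid followed at 9 dpp and lets the cells enter meiosis in step. Cells were taken 8 days after retinoic acid, and spermatocytes labelled as first-wave early zygotene were enriched on 28% Percoll. There were 2 INO80 libraries with 98100000 and 82600000 uniquely mapped reads and 2 input libraries with 70400000 and 39600000, rounded as deposited. The labels do not say whether replicates were separate animals or pools, so their spread may be technical. Peaks were deposited for each INO80 replicate, 5123 and 7836 of them, together with 1 set of 2847 peaks made by the authors from both replicates, called reproducible here. The inputs had no peak list, so no background at these genes could be measured the same way. The fold enrichment of a peak is the authors' peak caller's own value and ranks peaks only within its own list.

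Peaks report binding and not expression, so the cell type label could not be checked from them. As occupancy only, 0 of 9 spermatocyte marker genes (such as Sycp3 and Dmc1) had a peak within 1 kb in either list. By the same measure 6 of 6 spermatogonial, 4 of 5 Sertoli and 1 of 5 Leydig and peritubular marker genes had one, against 30.1% of all genes. A reproducible peak lay at 3 of the spermatogonial genes (Kit, Zbtb16 and Sall4), at 2 of the Sertoli genes (Sox9 and Wt1) and at 0 of the other markers, against 9.93% of all genes. The share of other testis cells in the preparation, and its part in the peaks described here, was not tested.

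PRC1 places ubiquitin on histone H2A through its RING subunits, and PRC2 methylates histone H3 at lysine 27 through EZH1 or EZH2. Canonical PRC1 reads the PRC2 mark through CBX proteins and compacts chromatin through PHC proteins, whereas variant PRC1 carries RYBP or YAF2 in place of CBX and is brought to DNA by partners such as KDM2B or E2F6. In male germ cells, Polycomb proteins are known to hold somatic and early developmental genes silent.

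The DNA at the strongest bound starts is shown first. Promoters came from RefSeq (GRCm38.p6), which gave sequence for 31 of the 36 genes. The stretches below are the 250 bases before the TSS of the 4 Polycomb genes with the highest mean fold over both replicates, and of Bcorl1, which had no peak. They lie at chr4:129335371-129335620 on the minus strand (Rbbp4), chr19:36348079-36348328 on the plus strand (Pcgf5), chr11:97699649-97699898 on the minus strand (Pcgf2), chr17:34024681-34024930 on the minus strand (Ring1) and chrX:48341108-48341357 on the plus strand (Bcorl1). Each is written 5′ to 3′ and ends at the base before the TSS. Capitals mark CpG dinucleotides.
Rbbp4: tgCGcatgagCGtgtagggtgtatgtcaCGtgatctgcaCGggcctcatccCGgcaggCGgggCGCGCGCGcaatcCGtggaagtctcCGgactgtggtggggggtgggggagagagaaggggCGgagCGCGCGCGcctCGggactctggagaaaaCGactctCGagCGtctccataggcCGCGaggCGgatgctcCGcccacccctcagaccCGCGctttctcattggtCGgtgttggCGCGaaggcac
Pcgf5: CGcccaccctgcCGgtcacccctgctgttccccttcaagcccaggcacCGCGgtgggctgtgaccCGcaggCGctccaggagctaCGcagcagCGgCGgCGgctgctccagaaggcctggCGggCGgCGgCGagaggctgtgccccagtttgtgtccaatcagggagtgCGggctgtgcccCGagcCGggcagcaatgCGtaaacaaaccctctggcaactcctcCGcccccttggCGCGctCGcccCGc
Pcgf2: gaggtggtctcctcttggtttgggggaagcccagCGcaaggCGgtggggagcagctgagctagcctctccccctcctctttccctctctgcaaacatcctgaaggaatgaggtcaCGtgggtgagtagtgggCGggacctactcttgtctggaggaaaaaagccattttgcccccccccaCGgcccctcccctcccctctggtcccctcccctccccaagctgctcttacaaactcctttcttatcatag
Ring1: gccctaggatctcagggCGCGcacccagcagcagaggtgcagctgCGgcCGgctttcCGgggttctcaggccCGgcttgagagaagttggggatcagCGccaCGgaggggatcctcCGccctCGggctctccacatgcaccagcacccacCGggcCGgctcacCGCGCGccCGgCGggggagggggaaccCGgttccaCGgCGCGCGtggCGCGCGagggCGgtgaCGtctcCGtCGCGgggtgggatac
Bcorl1: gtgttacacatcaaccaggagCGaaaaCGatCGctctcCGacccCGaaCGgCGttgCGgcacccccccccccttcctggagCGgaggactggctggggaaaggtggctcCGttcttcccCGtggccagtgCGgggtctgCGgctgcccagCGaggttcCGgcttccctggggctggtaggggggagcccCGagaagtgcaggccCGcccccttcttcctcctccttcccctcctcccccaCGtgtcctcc
Rbbp4 and Ring1 held 30 CpG dinucleotides each in these 250 bases, Pcgf5 held 23 and Bcorl1 held 18. Pcgf2 held 5, the fewest of these 5 stretches. The RefSeq TSS used for Pcgf2 is not the start that the deposited distance of its peak refers to. The E-box CACGTG, the site read by MAX-containing dimers such as the MGA and MAX pair of PRC1.6, occurred in the stretches of Rbbp4, Pcgf2 and Bcorl1.

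INO80 lay at the start of many Polycomb genes, and at a larger share of PRC1 than of PRC2 genes. A gene was counted for a replicate when a peak came within 1 kb of its TSS. By that measure 18 of 36 Polycomb genes (50.0%) had a peak in both replicates, and among all protein-coding genes the share was 18.5%. A reproducible peak lay within 1 kb of 10 of 36 (27.8%), with 9.93% among all genes. The replicate 1 list had peaks at 19 of them, against a background of 20.4% of all genes, and the replicate 2 list at 23, against 28.2%. A peak in at least 1 list was found at 24 genes (66.7%), against 30.1% of all genes, and 12 had none. The list was compiled with earlier results of these data known and the shares were not tested against each other.

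The genome-wide comparison includes many genes whose promoters are not CpG-rich. Of the 31 Polycomb promoters with sequence, 27 (87.1%) were CpG-rich, defined over 300 bases around the TSS as a CpG observed over expected above 0.6 and a GC content above 50%. That count takes 1 promoter a gene. Of all 32851 promoters in the RefSeq table, with every start of a gene counted, 33.3% were CpG-rich. Counted by gene, 8410 of the 17491 genes with sequence had a CpG-rich promoter. Among the 27 Polycomb genes with a CpG-rich promoter, 7 (25.9%) had a reproducible peak, and among all 8410 such genes the share was 17.0%. Peaks in both replicates occurred at 14 of the 27 (51.9%), with 32.1% among all CpG-rich genes. The gap to the background was thus smaller on CpG-rich genes than on all genes.

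Of the 25 PRC1 genes, 8 (32.0%) had a reproducible peak and 14 (56.0%) a peak in both replicates. Of the 11 PRC2 genes, 2 (18.2%) had a reproducible peak and 4 (36.4%) a peak in both. The shares were 9.93% and 18.5% among all genes and 17.0% and 32.1% among all genes with a CpG-rich promoter. All 11 PRC2 genes had a CpG-rich promoter, and the PRC2 shares lay near those of CpG-rich genes. No peak in either list was found at 6 PRC1 genes and at 6 PRC2 genes. Core and accessory genes differed less when taken over both complexes. Reproducible peaks lay at 4 of 14 core genes (28.6%) and at 6 of 22 accessory genes (27.3%). Peaks in both replicates lay at 8 core genes (57.1%) and at 10 accessory genes (45.5%). Within PRC1 they lay at 6 of 8 core genes (75.0%) and 8 of 17 accessory genes (47.1%). Within PRC2 the counts were 2 of 6 (33.3%) and 2 of 5 (40.0%). In the replicate 2 list alone, 57.1% of core and 68.2% of accessory genes had a peak, against 28.2% of all genes. None of these differences was tested. With peaks limited to a q of 0.001 or less, 11 PRC1 genes, 2 PRC2 genes, 7 core genes and 6 accessory genes had a peak in both replicates, with 12.8% of all genes as background.

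**Figure D1:**
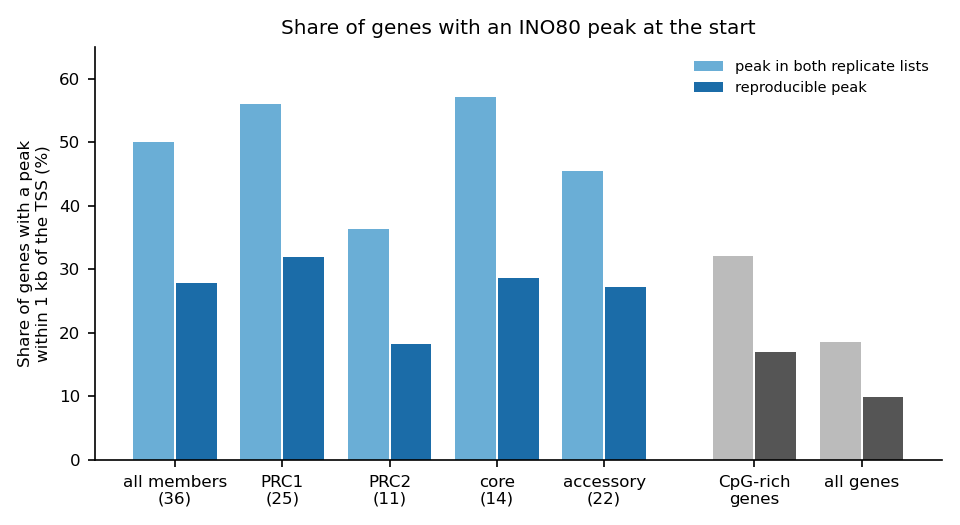
Share of genes (%, y axis) with an INO80 peak within 1 kb of the TSS, for all 36 Polycomb genes, PRC1, PRC2, core and accessory genes (blue, number of genes in parentheses) and for all genes with a CpG-rich promoter and all protein-coding genes (grey). Paler bars are peaks found in both replicate lists and darker bars reproducible peaks. PRC1 stands at 56.0% and 32.0%, PRC2 at 36.4% and 18.2%, and all genes at 18.5% and 9.93%.

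The plot of shares has no error bars because the reproducible set is 1 set made from both replicates. Without replicate 2 the count of Polycomb genes with a peak was 19, without replicate 1 it was 23, and for PRC2 the same counts were 4 and 5.

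The 2 RING genes, which encode the E3 ligases of every PRC1, were both bound in both replicates. The background was 18.5% of all genes and 32.1% of all genes with a CpG-rich promoter. Ring1 had peaks of fold 4.68 in replicate 1 and 5.70 in replicate 2, 1032 and 1296 bp wide. Its reproducible peak (chr17:34024088-34025438) was centred upstream, at −83 bp from the TSS, and was annotated as promoter. Rnf2, whose product is the paralogue RING1B, had weaker and narrower peaks of fold 2.99 and 3.12 (583 and 448 bp) and no reproducible peak.

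The 6 PCGF genes encode the RING partners that set which PRC1 subtype is built. Of them, 4 (66.7%) were bound in both replicates, against 18.5% of all genes and 32.1% of all CpG-rich genes. Pcgf5, of the PRC1.5 variant, had the highest replicate 2 fold at any Polycomb gene start, 7.08 with a width of 2079 bp, and 4.75 with 1517 bp in replicate 1. Those peaks stood at the 91.9th percentile of the replicate 1 list and at the 95.4th of the replicate 2 list. Its reproducible peak (chr19:36347449-36349710) was centred 250 bp downstream of the TSS in an intron.

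Pcgf2, the canonical subunit also called MEL18, had fold 4.38 in replicate 1 and 6.52 in replicate 2. The replicate 2 peak was 3827 bp wide against 1212 bp in replicate 1, and the reproducible peak (chr11:97699108-97703126) spanned 4019 bp, the widest of the 10. Its deposited distance of −620 bp refers to another start than the RefSeq TSS at 97699648, and the annotated gene end at 97702434 also lies inside the peak. Bmi1, the canonical paralogue of Pcgf2, had fold 3.15 and 2.91 in replicates 1 and 2, with widths of 607 and 2314 bp, and was not in the reproducible set. Pcgf6, of the germline-linked PRC1.6, had fold 3.10 in both replicates (584 and 459 bp). Pcgf1 and Pcgf3, of PRC1.1 and PRC1.3, had no peak.

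The CBX genes of canonical PRC1 encode the chromodomain readers. Cbx2 was the only 1 of the 4 in the list with a reproducible peak (chr11:119021780-119024078), with fold 3.79 and 5.12 and widths of 1281 and 2219 bp in replicates 1 and 2, centred at −92 bp from the TSS. Cbx6 had peaks of fold 2.70 and 3.57 in replicates 1 and 2. Cbx7 (fold 3.75, 1884 bp) and Cbx8 (fold 3.40, 1385 bp) had a peak in replicate 2 only. All 4 therefore had a peak within 1 kb in replicate 2, against 28.2% of all genes, and 2 of them in replicate 1, against 20.4%. The Cbx8 peak lay upstream, with its nearer edge 520 bp from the TSS.

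Cbx2 and Cbx8 are neighbours on chromosome 11. Peaks were counted from the Cbx2 start to the intergenic DNA upstream of Cbx8. Replicate 1 had 2 peaks there, the Cbx2 peak and another beyond both genes, and replicate 2 had 5. The widest lay upstream of Cbx8. It was in the reproducible set (chr11:119053159-119059017, 5859 bp), was named for Cbx8 at a distance of −15175 bp and was annotated as intergenic. Its fold was 4.18 in replicate 1 over 2972 bp and 4.58 in replicate 2 over 5724 bp. It is the 11th reproducible peak named for a Polycomb gene and the only one of them beyond 1 kb.

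The PHC genes encode the SAM-domain proteins through which canonical PRC1 polymerises. Phc2 had fold 3.63 and 4.35 (692 and 1344 bp) and Phc3 had fold 3.54 and 4.73 (762 and 888 bp) in replicates 1 and 2. Both had reproducible peaks in an intron, at chr4:128654350-128655836 with a centre 391 bp downstream of the Phc2 TSS and at chr3:30968437-30969438 with a centre 478 bp downstream of the Phc3 TSS. Phc1, the third paralogue, had a single peak in replicate 2 of fold 3.01, whose nearer edge was 727 bp from the TSS, the farthest that still counted among the Polycomb genes. Scmh1, a homologue of the fly Polycomb protein Scm, was the only gene with a peak in replicate 1 alone, at fold 2.79 and 391 bp.

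Variant PRC1 partners were bound in part. E2f6, the transcription factor of PRC1.6 that silences germline genes in somatic cells, had fold 4.39 in replicate 1 and 5.87 in replicate 2 (988 and 1314 bp). Its reproducible peak (chr12:16810536-16811863) was centred 234 bp downstream of the TSS and annotated as non-coding. L3mbtl2, the MBT-domain protein of the same variant, had no peak.

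Auts2, a subunit of PRC1.3 and PRC1.5 known for its role in neurons, had fold 4.30 in replicate 1 and 3.81 in replicate 2. Its peaks were wide, 2462 and 3286 bp, and the reproducible peak (chr5:132541592-132544942) was centred at −47 bp from the TSS. A second reproducible peak lay inside the Auts2 gene and overlapped peaks at chr5:131536627-131539032 in replicate 1 and chr5:131536806-131539692 in replicate 2. Their fold was 4.31 in replicate 1 and 7.61 in replicate 2, the replicate 2 peak at the 97.1th percentile of its list. The authors' annotation named that peak for Gm29681, at a distance of −123417 bp, so a count by gene name misses it.

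Rybp, whose product takes the place of CBX in variant PRC1, had fold 2.57 and 2.79 in replicates 1 and 2, and its paralogue Yaf2 had a peak in replicate 2 only, at 2.38 the lowest fold at these starts. Kdm2b, the CXXC protein that brings PRC1.1 to unmethylated CpG islands, had fold 2.64 and 3.53 in replicates 1 and 2. Of its partners in PRC1.1, Bcor and Bcorl1 had no peak at their starts. Inside the Bcor gene, replicate 2 held 5 peaks between 20021 and 79852 bp from the TSS with folds of 2.54 to 4.59, and replicate 1 held none.

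INO80 peaks in both replicates lay at the start of 2 of the 6 PRC2 core genes (33.3%). That is near the 32.1% of all genes with a CpG-rich promoter, and the share of all genes was 18.5%. Rbbp4 encodes a histone-binding WD40 protein that also serves NuRD, CAF-1 and other complexes, so it is not specific to PRC2. It had the highest replicate 1 fold at any Polycomb gene start, 5.63 over 1251 bp at the 97.0th percentile, and 6.19 over 1157 bp in replicate 2. Its reproducible peak (chr4:129334314-129335864) was centred 281 bp downstream of the Rbbp4 TSS. The same peak held the start of the neighbouring gene Zbtb8os, to whose promoter the authors' annotation assigned it, so this peak cannot be given to 1 of the 2 genes.

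Ezh2, the methyltransferase that predominates in dividing cells, had weak peaks of fold 2.74 and 2.73 in replicates 1 and 2, at the 17.3th and 16.0th percentiles of their lists. Ezh1, the paralogue of non-dividing cells, had none. Eed, which reads trimethylated lysine 27, and Suz12, the scaffold of the complex, also had none, nor did Rbbp7, the X-linked paralogue of Rbbp4. Hence the only reproducible peak among the 6 PRC2 core genes was the one that Rbbp4 shares with its neighbour. It makes 16.7% of them, near the 17.0% of all genes with a CpG-rich promoter.

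Of the PRC2.1 genes, which encode the Polycomb-like proteins that bind CpG-rich DNA, Phf19 had a reproducible peak (chr2:34912977-34915213) centred at −119 bp from its TSS. Its fold was 3.76 in replicate 1 and 3.89 in replicate 2, with widths of 1067 and 1886 bp. Phf1 had a peak in replicate 2 only (fold 2.73, 495 bp) and Mtf2 had none. Of the PRC2.2 genes, Aebp2, which encodes a zinc-finger cofactor, had fold 2.78 and 2.98 with peak centres at −879 and −827 bp from the nearest of its 3 RefSeq starts. Jarid2, which links PRC2 to ubiquitinated H2A, had no peak within 1 kb, and its nearest one was in replicate 1 at 2065 bp with fold 3.23.

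**Figure D2:**
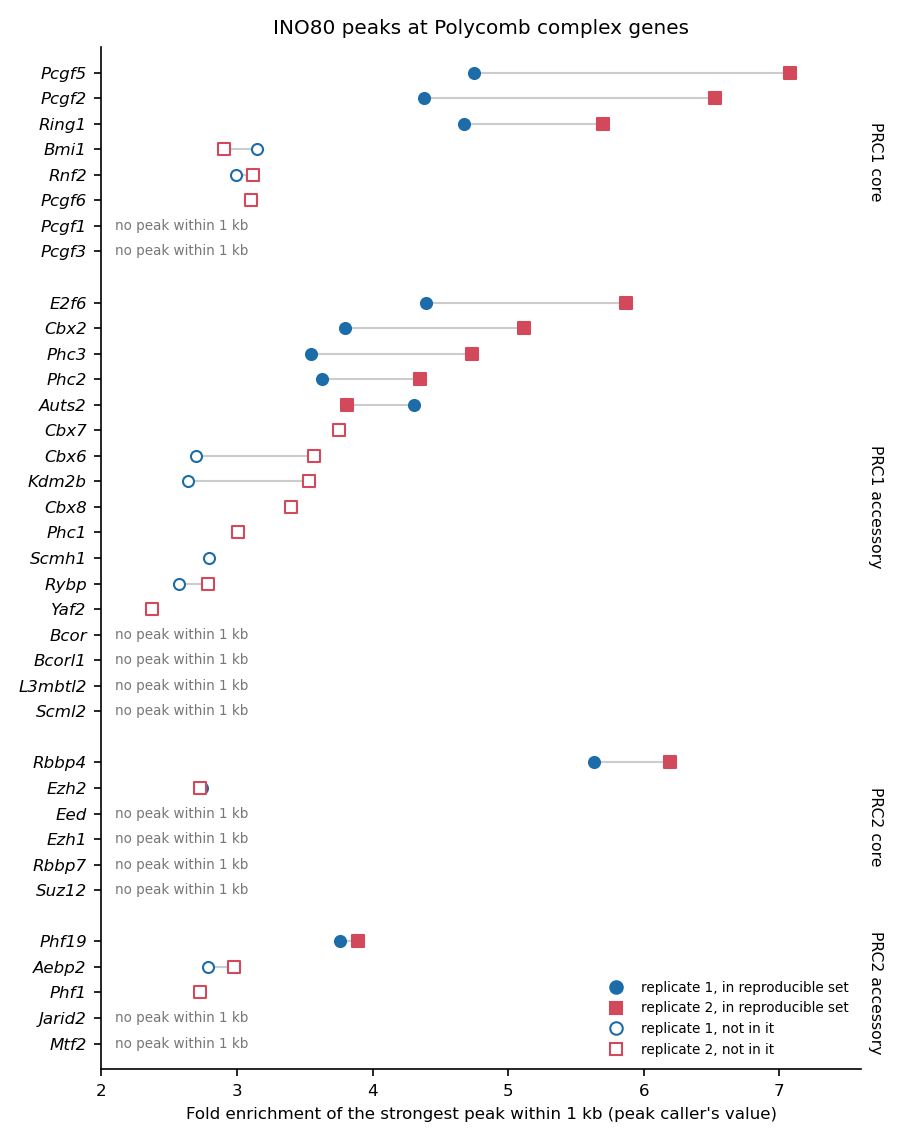
Fold enrichment of the strongest INO80 peak within 1 kb of the TSS (x axis, peak caller's value) for each of the 36 Polycomb genes, in replicate 1 (circles) and replicate 2 (squares), grouped into PRC1 core, PRC1 accessory, PRC2 core and PRC2 accessory. Filled symbols mark the 10 genes in the reproducible set, whose values start at 3.54. The open symbols of genes with a peak in both lists end at 3.57.

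The plot of fold by gene separates the Polycomb genes into a stronger and a weaker set. In replicate 1 the 10 genes with a reproducible peak had folds of 3.54 to 5.63, and the 8 genes bound in both lists without one had folds of 2.57 to 3.15. In replicate 2 the same groups had 3.81 to 7.08 and 2.73 to 3.57, so they did not overlap in either replicate. Cbx7, with a peak in replicate 2 only, had 3.75. Over all genes the groups overlapped. There, genes bound in both lists without a reproducible peak had folds of 2.38 to 8.50 in replicate 1 and 2.28 to 12.6 in replicate 2. The groups went by the gene that the authors named for each peak. With any TSS within 1 kb of the peak counted, 11.6% of all genes had a reproducible peak in place of 9.93%. The Polycomb count stayed at 10. Some genes counted over all genes as without a reproducible peak may thus lie at one named for a neighbour. The medians of all genes with a reproducible peak were 3.70 and 5.02. Selection into the reproducible set used these signals, so the separation among the Polycomb genes is a description.

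The median fold at the Polycomb genes lay above that of all genes in replicate 1 and below it in replicate 2. The fold was 3.54 in replicate 1 and 3.57 in replicate 2, and over all genes with a peak the medians were 3.24 and 3.73. The median width was 762 and 1314 bp, against 777 and 1137 bp over all genes with a peak. Within the list, PRC1 had median folds of 3.54 and 3.66 and PRC2 of 3.27 and 2.98, the PRC2 values resting on 4 and 5 genes. Core genes had 3.76 and 4.41 and accessory genes 3.54 and 3.57.

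Among genes with a reproducible peak, the Polycomb genes had median folds of 4.34 and 5.41, and all such genes 3.70 and 5.02. Their median widths were 1139.5 and 1615 bp against 925.5 and 1516 bp.

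**Figure D3:**
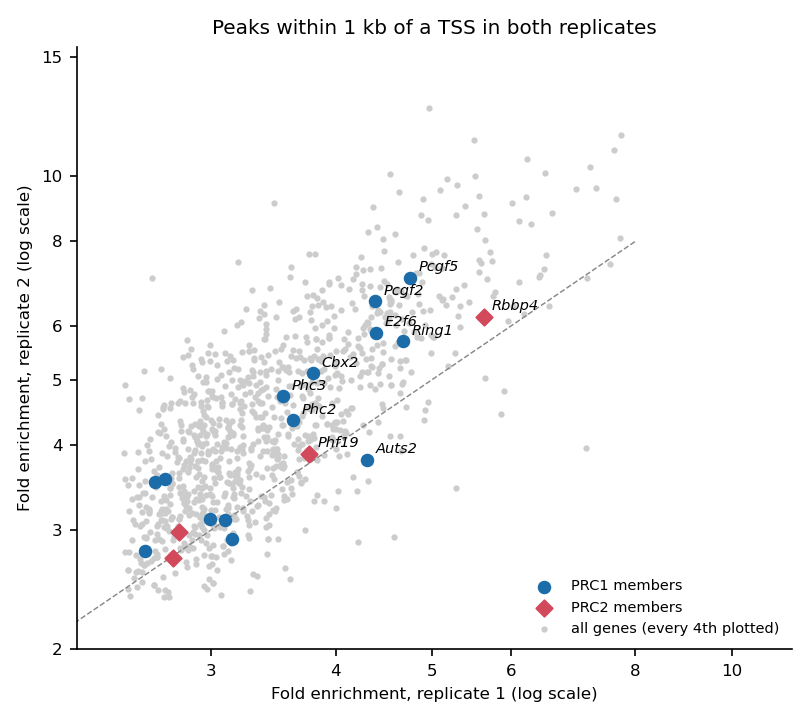
Fold enrichment in replicate 1 (x axis) and replicate 2 (y axis), both on log scales, for genes with a peak within 1 kb of the TSS in both lists: PRC1 (blue circles), PRC2 (red diamonds) and every 4th of all 4044 genes (grey). The dashed line marks equal fold, and each axis ranks peaks only within its own list. The 10 Polycomb genes with a reproducible peak lie above the other 8 on both axes, whereas over all genes such groups overlapped. A reproducible peak counts only for the gene that the authors named.

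Where the peaks sat relative to the TSS varied between the genes. Among reproducible peaks within 1 kb, 5 of the 10 at Polycomb genes were centred upstream of the TSS (Pcgf2, Ring1, Cbx2, Auts2 and Phf19, by the deposited distances), whereas over the whole set the share was 22.8%. The 10 had a median width of 1894 bp, against 1726 bp for all reproducible peaks within 1 kb. In each replicate, 12 of the 18 Polycomb peaks present in both lists overlapped the TSS itself. Requiring that overlap in both lists left 10 of the 18 Polycomb genes, 8 of PRC1 and 2 of PRC2. Over all genes it left 2653 of the 4044 with a peak in both lists, so such overlap was not particular to Polycomb genes. Counted over every gene, these are 10 of 36 Polycomb genes and 12.1% of all genes.

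**Figure D4:**
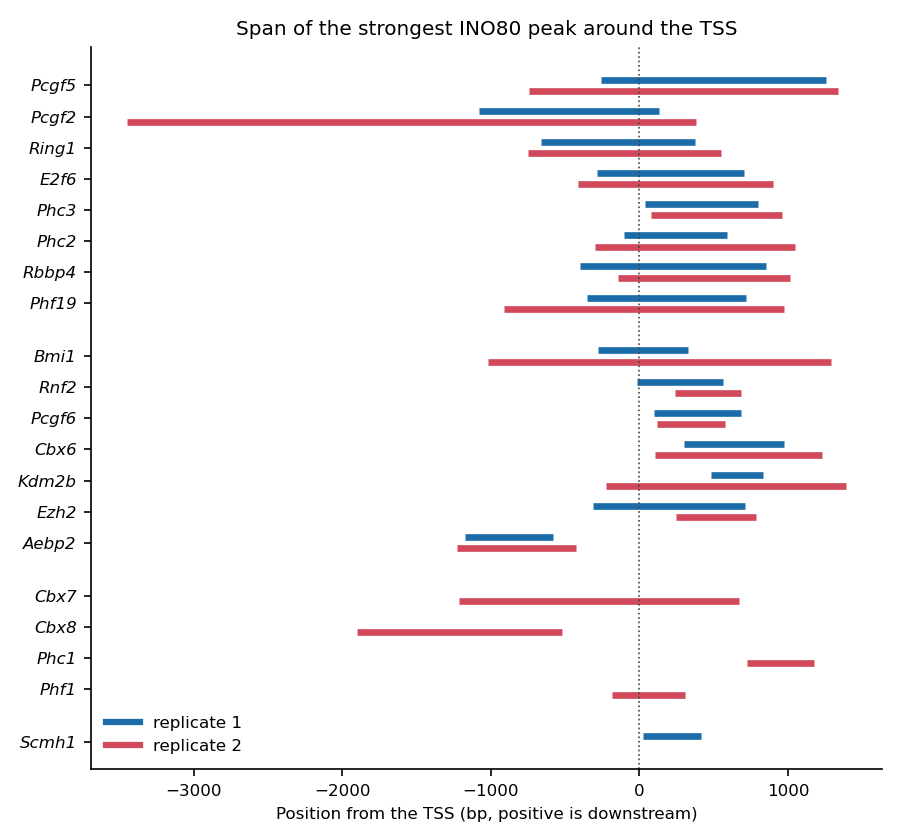
Span of the strongest INO80 peak around the TSS (x axis, bp, positive is downstream) in replicate 1 (blue) and replicate 2 (red) for the Polycomb genes with a peak and a RefSeq TSS of known strand. From top to bottom are genes in the reproducible set, in both lists, in replicate 2 only and in replicate 1 only. Most bars cross or follow the dotted TSS line, the Aebp2 bars and the Cbx8 bar of replicate 2 lie wholly upstream of it, and the Pcgf2 bar of replicate 2 is 3827 bp long.

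The X chromosome held 4 of the Polycomb genes, Rbbp7, Scml2, Bcor and Bcorl1, and none of them had a peak within 1 kb in either list. Scml2 encodes an Scm homologue with a known role in the male germline. Reproducible peaks were rare on X, at 1.24% of 966 X-linked genes, and peaks in both replicates occurred at 3.11% of them. By these measures 0 of 4 is near the background. The share of X-linked genes with a peak in at least 1 list was not counted. Without the X-linked genes, 10 of 32 autosomal Polycomb genes (31.3%) had a reproducible peak and 18 (56.3%) a peak in both replicates. Among all genes, with the X-linked ones included, the shares were 9.93% and 18.5%.

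CpG-rich promoters prevailed among Polycomb genes with and without a peak, though the start was chosen differently for them. For a gene with several starts, the start nearest the strongest peak was used. Where there was no peak, the most CpG-rich start was used. Jarid2, Mtf2 and Bcor had no peak and 2 starts each, so the comparison favours a high CpG ratio for them. Of the 8 promoters with sequence that had a reproducible peak, 7 were CpG-rich, with a median CpG observed over expected of 0.86. Of the 11 without a peak in either list, 9 were CpG-rich, with a median of 0.76. Eed, Suz12 and Mtf2 were among the genes with no peak. The plot of composition shows Suz12, and Mtf2 by its more CpG-rich start, close to Rbbp4 in CpG density.

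**Figure D5:**
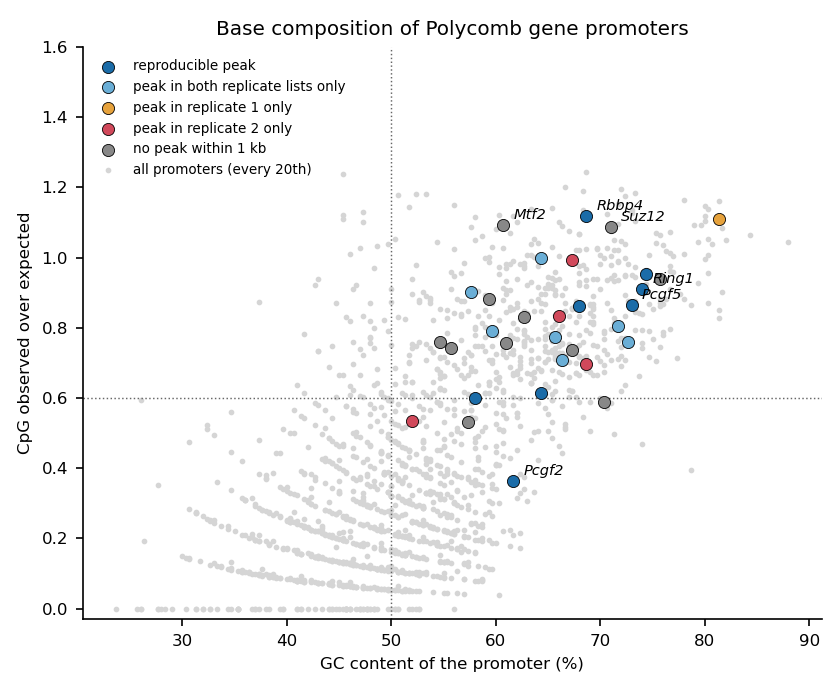
CpG observed over expected (y axis) against GC content (x axis, %) of the 300 bases around the TSS for 31 Polycomb genes, coloured by peak status, and for every 20th RefSeq promoter (small grey points). Dotted lines mark 0.6 and 50%. Most Polycomb genes lie in the upper right part whether bound or not, with the most CpG-rich start shown where there was no peak. Pcgf2, placed by its RefSeq TSS, lies below the line.

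Motifs of factors that have been tied to Polycomb or to CpG-island promoters were searched on both strands of the 300 bases. Shares of Polycomb promoters count 1 promoter a gene. Shares of all or of CpG-rich promoters count every promoter in the table, so the units differ. CACGTG occurred in 8 of 31 Polycomb promoters (25.8%), in 7.15% of all promoters and in 11.45% of CpG-rich ones. Of the 27 CpG-rich Polycomb promoters, 6 (22.2%) held it. By status it was found at 4 of the 8 genes with a reproducible peak, Pcgf2, Phc2, Phc3 and Rbbp4, and at Bmi1, Cbx6, Cbx8 and the unbound Bcorl1. In the sequences printed above it begins 224 bases before the TSS of Rbbp4, 137 before that of Pcgf2 and 12 before that of Bcorl1. Over all genes with a CpG-rich promoter, a reproducible peak lay at 16.46% of those with CACGTG and at 17.08% of those without.

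The other motifs were rare. GGCGGGAA, a site of E2F factors, occurred in 1 of 31 Polycomb promoters (3.23%), that of Scmh1, and in 2.19% of all. AAGATGG, read by YY1, occurred in 3 (9.68%), those of E2f6, Phc3 and Phf19, and in 6.34% of all promoters. TCTCGCGA occurred in 0 of 31 and in 0.995% of all. A match of letters is a description and not a bound site.

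The authors' deposited table of functional terms lists the PRC1 complex with 6 genes of 11 in its population, a fold of 4.77, a p-value of 0.00496 and an adjusted p-value of 0.0684. The genes with a reproducible peak that it shares with the list used here are Cbx2, Pcgf2, Phc2, Phc3 and Ring1. The wider PcG protein complex term of the authors' deposited table had 7 genes of 26, a fold of 2.35 and an adjusted p-value of 0.508. Pcgf5 is in that term and absent from the narrower one. Of the Polycomb genes, the authors' deposited table of selected genes near peaks names 1, Rbbp4.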

How the data were processed

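INO80 ChIP-seq was done on 2 libraries and input chromatin on 2. Named in the submitters' processing notes, without roles, are MACS2 2.2.7.1, BWA, fastp, SAMtools 1.11, Picard 2.21.2, deepTools 3.4.3 and the builds GRCm38 and mm10. Sources used here do not give the control and settings of peak calling. The authors deposited broad peaks per replicate, with a fold (ratio), a −log10 p, a −log10 q and a score equal to 10 times the −log10 q, truncated. The peak names carry another date in each INO80 replicate, so replicate and date cannot be told apart. The library kit given for INO80 is not listed for the inputs. Per the title of its table, the reproducible set was kept by the authors at an IDR under 0.05, and it has no signal column. Distances in bp are from peak centre to TSS as the authors gave them. The deposited functional table gives a gene count, a fold and p-values per term. Library read totals are the authors' rounded values.

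TSSs came from the RefSeq promoter table (GRCm38.p6) for 17491 of 21883 genes (79.9%). The other 4392, with Pcgf1, Cbx2, Rybp, Yaf2 and Auts2 among them, were placed by both gene ends. A gene had a peak when an interval lay within 1 kb, and the strongest stood for it. It had a reproducible peak when the authors named one for it within 1 kb. The deposited distance equalled that to the RefSeq TSS within 1 bp for 1976 of 2094 peaks (94.4%). Genes differ in how many starts they have, and more starts give more chances of a peak. A promoter was 250 bases before to 50 after the TSS, with the CpG limits given above. All 36 genes are accounted for, and genes of other lists are named where they had a reproducible peak. An item of those lists is not reported here. The members and lists were chosen with earlier results of these data known. Counts and medians are described beside those of all genes, with no test. Alternatives were the window, q, distance and leaving out a replicate. The counting was tested on simulated peaks. Python 3.11.15, pandas 2.3.3, NumPy 2.4.6 and matplotlib 3.10.9 were used.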

Additional observations from a re-analysis of the deposited data

How the results depend on the processing

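Over 14 counts and medians, 65 alternative settings were run. Of these, 54 stayed within 1.5 times the value given or, for medians, within the limit of change, and 11 did not. Counts of reproducible peaks stayed within 1.5 times under each alternative run, with 11 Polycomb genes' peaks at any distance. Genes with a peak in both lists fell to 10 of 36 when the peak had to overlap the TSS, against 12.1% of all genes. They were 8 of PRC1, 2 of PRC2, 5 core and 5 accessory. At a q of 0.001 or less, 13 remained, PRC2 fell to 2 and accessory genes to 6, with 12.8% of all genes. A 5 kb window gave median folds of 3.39 and 3.73 in replicates 1 and 2, and the q limit gave 3.79 and 3.78. The overlap and q limits remove peaks, and the 5 kb window admits farther ones, which gave 20 genes a peak in replicate 1 and 23 in replicate 2. Leaving out 1 replicate gave 19 to 23 Polycomb genes, 15 to 18 of PRC1, 4 to 5 of PRC2, 8 core and 11 to 15 accessory. The background was then 20.4% of all genes without replicate 2 and 28.2% without replicate 1. Placing every gene by both its ends, chosen after seeing the data, gave 15 Polycomb genes, 12 of PRC1, 3 of PRC2, 7 core and 8 accessory. The background by that placing was 17.8% of all genes. No paired analysis was possible because the inputs have no peak list and no result comes from a test. Replicate 2 has fewer uniquely mapped reads but more peaks, and reads per peak were not analysed here, so a gene without a peak was not detectable at this threshold and may still be bound.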

Other observations

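Some Polycomb partners outside the list of 36 were bound as well. Of 24 further partners found in the gene table, 7 had a reproducible peak within 1 kb, against 9.93% of all genes, and 10 a peak in both replicates, against 18.5%. Fbrsl1, a relative of Auts2, had fold 5.05 in replicate 1 and 7.72 in replicate 2. Sfmbt1, an MBT-domain protein, had 4.98 and 6.03, and its paralogue Sfmbt2 had 3.62 and 5.23 over peaks of 5116 and 5561 bp. Epop, an elongin-linked PRC2 partner, had 4.41 and 6.34. Tfdp1, the dimerisation partner of E2F factors, had 3.94 and 6.91, Usp7, a deubiquitinase found with PRC1, had 3.37 and 4.24, and the deacetylase Hdac2 had 2.98 and 3.93. Mga, Max and Yy1, which encode factors that read the motifs searched, had no peak.

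Of 12 genes for enzymes that remove the Polycomb marks and their cofactors, 2 (16.7%) had a reproducible peak, against 9.93% of all genes. Both encode cofactors of the H2A deubiquitinase BAP1, Asxl2 with fold 4.48 and 6.68 and Asxl3 with 3.39 and 6.44 in replicates 1 and 2. Kdm6a, the X-linked demethylase of lysine 27, had peaks of 2.86 and 3.78 in both lists. Of 19 Trithorax COMPASS genes, 0 had a reproducible peak, against 9.93% of all genes, and 3 (15.8%) a peak in both lists, near the 18.5% of all genes. Of 25 BAF remodeller genes, 6 (24.0%) had a reproducible peak, against the same 9.93%, namely Arid1b, Dpf1, Dpf3, Ss18, Bcl7a and Bcl7c. Ss18 was placed by its gene ends and had a peak within 1 kb of them in the replicate 2 list only, at fold 6.82. No difference between these lists was tested.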
